A study of Cavia porcellus with 24 samples.

Results

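The comparison described here is that of the high fat diet (HFD) in second-generation (F2) guinea pigs whose F0 granddams had received the full ration. It holds 5 of the 24 animals of the series: HFD animals 50 and 53 (PC-C-H) and control diet animals 52, 54 and 55 (PC-C-C). The members were taken by the sample labels, which give the generation, the ration of the F0 female and the diet. PC-C-H animal 51 was left out because 1 PC-C-H library failed the study's quality check and the animal list omits this animal. All were Hartley guinea pigs. The F0 females of this arm ate 100% of the ad libitum amount, and the F1 dams ate control chow without limit. The F2 animals ate either control chow (13% of energy from fat) or a chow with pork fat, cholesterol and fructose added (38% of energy from fat) for 12 weeks, until 20 weeks of age. The label calls the F0 ration the maternal diet, which for F2 animals is that of the granddam. The study's animal list gives animals 50 and 55 as female and animals 52, 53 and 54 as male. By the study's pregnancy data, the full-ration arm had fewer F1 dams than there are control diet animals here. Some of the control diet animals therefore share a dam with each other. The study's methods assigned diets with the aim of keeping siblings on different ones, which cannot have held for all of these animals. The labels do not give dams or litters, so dam could not enter the fits, and p-values treat the animals as independent and measure the spread between them.

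The samples were messenger RNA flushed out of 1 carotid artery per animal with a lysis reagent, a procedure meant to collect the inner lining of the vessel, the endothelium. Cells that take up excess cholesterol convert part of it to oxysterols, which activate the liver X receptors. These nuclear receptors raise transcription of *Abcg1*, whose product exports cholesterol, of *Mylip*, whose product marks the LDL receptor for degradation, and of *Srebf1*, the factor that turns on fatty acid synthesis genes such as *Scd1*.

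The 5 libraries held 29140217 reads (animal 50), 26963929 (53), 26006336 (52), 19894341 (54) and 20540311 (55), within a range of 14061522 to 31148123 over the series. The table lists genes by guinea pig Ensembl identifier, and a symbol could be paired with 144 of 18149 genes. These symbols come from the readable part of the study's list for the F1 comparison PC-C vs PC-H, so genes outside that list appear here by identifier. The lists of endothelial, smooth muscle, fibroblast, T cell, adipocyte and red blood cell markers had 0 members with a paired symbol, and the labelled tissue could therefore not be checked against its defining markers. In bulk RNA, fewer cells of a type and less RNA per cell cannot be told apart.

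HFD animals of this arm had a higher transcript level of *Mylip*, a liver X receptor target, by every tool run, while *Abcg1* and *Srebf1* were called with DESeq2 alone and *Scd1* with none. With limma on log2 of the normalized count plus 1, 1 of 13224 genes (0.00756%) had an adjusted p under 0.05 for HFD against control diet. This gene was *Mylip*, higher in PC-C-H, and 1012 genes had an unadjusted p under 0.05. The DESeq2 Wald test on whole reads recovered from the table called 48 of 13898 genes (0.345%), of which 23 (0.165%) were higher and 25 (0.18%) lower in PC-C-H, while edgeR's quasi-likelihood test called 1. Of the 48 genes, 5 had a symbol: *Mylip*, *Abcg1*, *Srebf1* and *Ackr3* were higher and *Samsn1* was lower. The groups did not overlap for 1652 genes higher and 1676 genes lower in PC-C-H, together 25.2% of the genes tested. The median log2 fold change over these genes was -0.0058 and the median of its size 0.21. For a single gene, an exact two-sided permutation test of 2 against 3 animals cannot give a p below 0.2, so the p-values here are those of the models, which share the spread over genes and groups.

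*Mylip* (ENSCPOG00000002917), an E3 ubiquitin ligase that targets the LDL receptor, had a normalized count of 1376 in animal 50 and 1495 in animal 53. The control diet animals had 425 (52), 504 (54) and 439 (55). The groups stood well apart, and animal 52 did not differ from its group in this gene. The means were 1436 ± 84.5 (SD, n = 2) in PC-C-H and 456 ± 41.8 (SD, n = 3) in PC-C-C, a 3.15-fold difference. The log2 fold change was 1.65 (SE 0.25, limma adjusted p = 0.0188, DESeq2 adjusted p = 3.97e-07). With each of the 5 animals left out in turn, the log2 fold change stayed between 1.59 and 1.73 and DESeq2 called the gene every time, whereas limma called it without animal 52 alone (adjusted p = 0.00282) and gave adjusted p-values of 0.059 to 0.365 without each of the others.

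*Abcg1* (ENSCPOG00000015194), the cholesterol exporter, had a normalized count of 2292 in animal 50 and 2499.8 in animal 53, against 157 (52), 360.3 (54) and 223 (55) in the control animals. This was the widest gap of the 4 lipid genes, 9.71-fold between the group means, and here animal 52 was the lowest of the controls. The log2 fold change was 3.36 (SE 0.63) and was called with DESeq2 (adjusted p = 8.09e-04) but not with limma (adjusted p = 0.0836). Without animal 53, DESeq2 no longer called it (adjusted p = 0.0983).

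*Srebf1* (ENSCPOG00000002439), the transcription factor of fatty acid synthesis, had a normalized count of 525 in animal 50 and 427 in animal 53, against 136 (52), 76.0 (54) and 47.1 (55). The groups did not overlap, and animal 52 was the highest of the controls. The log2 fold change was 2.57 (SE 0.61, limma adjusted p = 0.258, DESeq2 adjusted p = 0.0131). DESeq2 kept the call only when animal 52 was the one left out (adjusted p = 3.33e-04) and gave adjusted p-values of 0.143 to 0.257 without each of the other 4 animals.

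*Scd1* (ENSCPOG00000032751), the desaturase that makes monounsaturated fatty acids, had a normalized count of 897 in animal 50 and 579 in animal 53, against 512 (52), 235 (54) and 264 (55). The 2 groups did not overlap, but animals 53 and 52 lay close together. The log2 fold change of 1.18 (SE 0.46) passed neither test (limma adjusted p = 0.539, DESeq2 adjusted p = 0.384). Without animal 52 it was 1.56 with DESeq2 and was called (adjusted p = 0.0414).

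**Figure D1:**
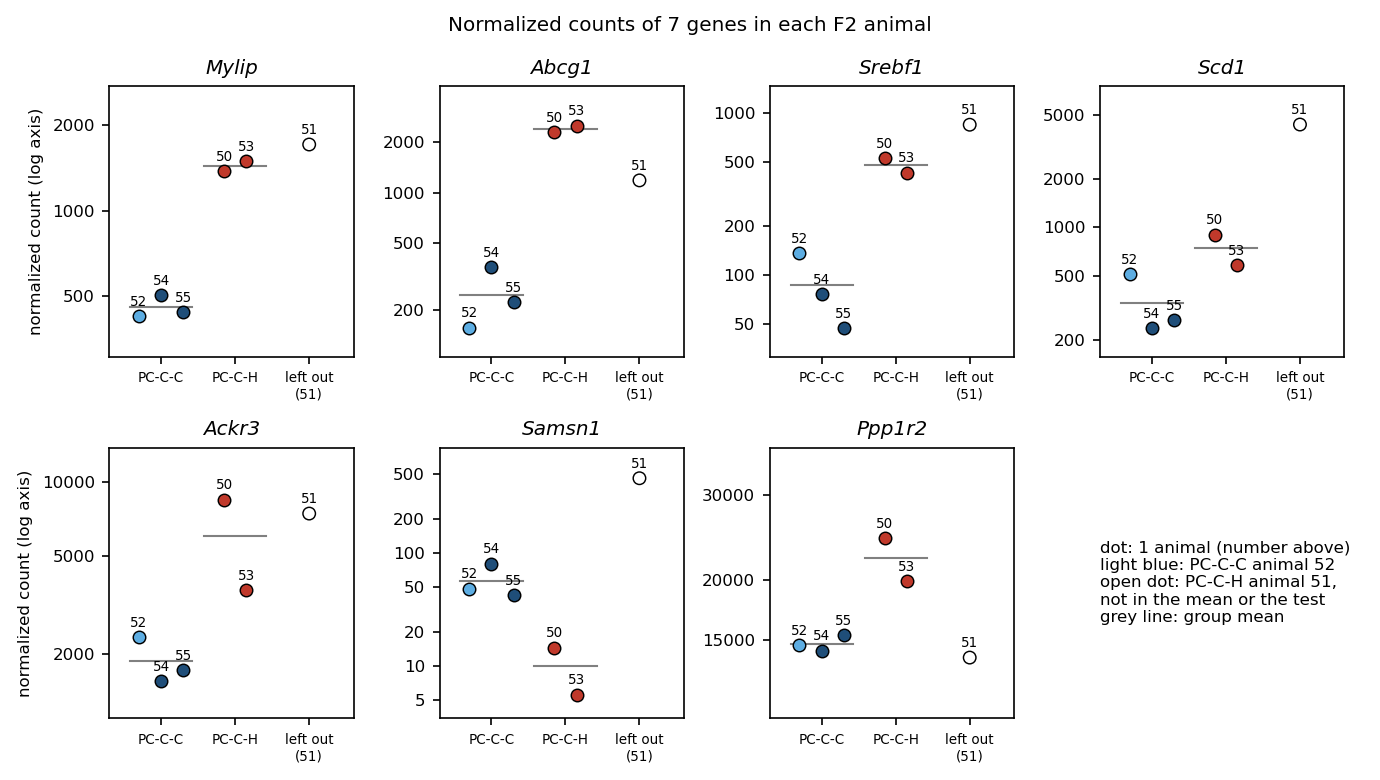
Normalized counts on a log axis for 7 genes, 1 dot an animal, in PC-C-C, in PC-C-H and in the PC-C-H animal 51 that was left out, with grey lines at the group means. *Mylip* and *Abcg1* show the clearest separation of animals 50 and 53 from all 3 control animals, and in *Scd1* animal 52 (512) lies next to animal 53 (579).

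Of the 13 genes listed as liver X receptor targets and partners, 4 had a symbol. These 4, given above, were all higher in PC-C-H without overlap between the groups, where 12.5% of all genes tested did the same. That share is not a matched background, because symbols were available only for genes on the study's F1 diet list. Of the 139 tested genes with a symbol, 32 were higher without overlap. The other members of the list could not be examined. For the 4 genes given above, the median log2 fold change was 2.11. Their summed normalized count was 5091 and 5001 in HFD animals 50 and 53, and 1231, 1175 and 974 in control animals 52, 54 and 55. Measured against animal 52 alone the median difference was 1.77, and against animals 54 and 55 it was 2.29. *Abcg1* and *Mylip* thus set animal 52 apart from the HFD animals as far as they did animals 54 and 55, whereas *Srebf1* and *Scd1* placed it between them.

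Among the genes of endothelial signalling, *Ackr3* (ENSCPOG00000014142), a scavenging receptor for the chemokine CXCL12, had a normalized count of 8483 in animal 50 but 3641 in animal 53. Control animals had 2355 (52), 1556 (54) and 1725 (55). The groups did not overlap, yet the HFD animals differed from each other more than animal 53 differed from animal 52. The log2 fold change of 1.59 (SE 0.39) was called with DESeq2 (adjusted p = 0.0112) but not with limma (adjusted p = 0.291). DESeq2 kept the call without animal 52 or 53, and lost it without animal 50 (0.95, adjusted p = 0.659), 54 (adjusted p = 0.148) or 55 (adjusted p = 0.122).

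*Samsn1* (ENSCPOG00000006019), an adaptor protein known from B cells, was lower on HFD. Its normalized count was 14.6 in animal 50 and 5.61 in animal 53, against 48.3 (52), 80.9 (54) and 42.6 (55). The groups did not overlap, and the log2 fold change of -2.46 (SE 0.59) was called with DESeq2 (adjusted p = 0.0322) and not with limma (adjusted p = 0.285). DESeq2 kept this call without animal 52 (adjusted p = 0.011) and not without any of the other 4 animals, and with animal 51 included the limma log2 fold change was -0.63.

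*Ppp1r2* (ENSCPOG00000040784), an inhibitor of protein phosphatase 1, had normalized counts of 24408 and 19879.7 on HFD (50 and 53) and of 14598, 14242 and 15322 on control diet (52, 54 and 55). The 2 groups did not overlap and the controls lay close together, but the log2 fold change of 0.58 (SE 0.23) passed neither test (limma adjusted p = 0.53, DESeq2 adjusted p = 0.322). *Ndp*, which encodes the Wnt pathway ligand norrin, was listed at 0 in animals 50, 53 and 55 and at 5.69 (52) and 2.45 (54), too low to be tested with limma.

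Beyond the named genes, the highest log2 fold changes among the called genes with a mean of at least 50 belonged to ENSCPOG00000040210 and ENSCPOG00000003851. ENSCPOG00000040210 had a normalized count of 56.9 (50) and 140.3 (53) on HFD and of 17.1 (52), 11 (54) and 12.3 (55) on control diet. ENSCPOG00000003851 had 927 (50) and 574 (53) against 157 (52), 190.0 (54) and 215 (55). Neither gene overlapped between the diets, and in both animal 52 lay with the other controls. The latter had a DESeq2 adjusted p of 2.37e-05 and a limma adjusted p of 0.0545.

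At the other end, ENSCPOG00000034742 and ENSCPOG00000004409 had the lowest log2 fold changes. ENSCPOG00000034742 had a normalized count of 59.4 (50) and 3.74 (53) against 13459 (52), 787 (54) and 627 (55), and ENSCPOG00000004409 had 33.3 (50) and 17.8 (53) against 5473 (52), 172 (54) and 248 (55). In both, animal 52 was far above the other controls, and so was the left-out HFD animal 51 (10083 and 6871). Without animal 52 DESeq2 called neither (adjusted p = 0.209 and 0.369). The genes DESeq2 called with each of the 5 animals left out in turn were *Mylip* and ENSCPOG00000007538, the latter named after its values were seen. ENSCPOG00000007538 had a normalized count of 34.2 (50) and 24.3 (53) on HFD and of 36 (52), 912 (54) and 944 (55) on control diet. Animal 52 had nearly the level of the HFD animals in this gene, and animals 54 and 55 alone stood apart.

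Animal 52 differed from animals 54 and 55 over many genes. Animals 54 and 55 had a median absolute log2 difference of 0.229 over the 13224 genes, and 7.14% of the genes differed at least 2-fold between them. Animal 52 differed from animal 54 by 0.29 (13.8% of the genes at least 2-fold) and from animal 55 by 0.34 (14.9%). It was nearer to HFD animals 50 (0.255, 10.5%) and 53 (0.243, 11.7%), which differed from each other by 0.237 (9.09%). The Pearson correlation of animal 52 was also higher with animals 50 (0.946) and 53 (0.938) than with 54 (0.925) and 55 (0.924). Yet each HFD animal correlated better with animals 54 and 55 (0.947 to 0.959) than with animal 52. By this measure animal 52 stood apart from the other animals of both diets. Over all genes tested, animal 52 lay nearer to the mean of the HFD animals than to the mean of animals 54 and 55 in 59.8%.

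Libraries elsewhere in the series were compared for the same difference. A score was taken over the 302 genes that limma called in PR-C vs PR-C-C, a comparison that holds none of the 5 animals, as the difference between the mean log2 level of its 125 PR-C-C-high genes and that of its 177 PR-C-C-low genes (2.28%, 0.945% and 1.34% of the genes tested). Animals 54 and 55 scored 2.36 and 2.37, and animal 52 scored -0.33, close to HFD animals 50 (-0.23) and 53 (-0.47). Of all 24 libraries, 6 scored from 2.36 to 2.98 and 18 from -0.82 to -0.23. The 6 were control animals 54 and 55, the 3 PR-C-C animals and the animal left out, 51. The sides of the PR-C and PR-C-C animals were fixed by the choice of the genes and carry no information. The group means of the other 18 libraries had no part in the choice. Their spread, except that of animal 51, entered it through the variance that the model shares over groups. Animals 54 and 55 also had the fewest reads of the 5. Over the series, depth followed the division in part. High-side animals 41 and 47 (both PR-C-C), 54, 55 and 51 had 14061522 to 21477925 reads. Every library on the low side had 22163509 or more, and the remaining high-side library, PR-C-C animal 58, had 24580498. The part of depth or of this division in the results was not tested. Sex did not follow the division, as animals 52 and 54 were both male.

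**Figure D2:**
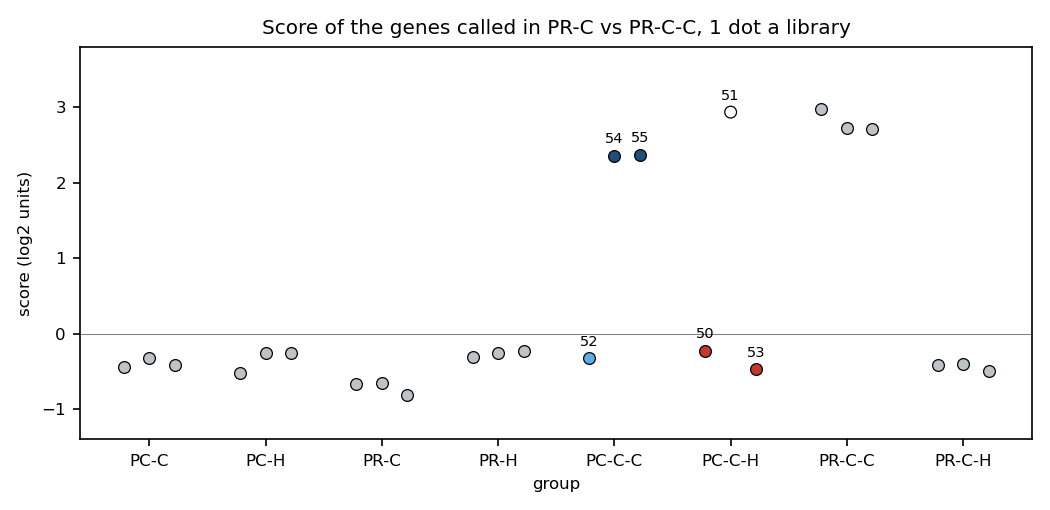
Score in log2 units for each of the 24 libraries by group, 1 dot a library, with the F2 animals of the full-ration arm numbered. PC-C-C animals 54 and 55 lie at 2.36 and 2.37, while PC-C-C animal 52 (-0.33) lies with PC-C-H animals 50 and 53 and with the F1 groups.

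Among the 5 animals, animal 52 was the only one on the low side of the division that ate control chow, so within that side the diet could be compared with 1 control animal, with no test. Against animal 52, the HFD mean was 15.2-fold for *Abcg1*, 3.37-fold for *Mylip*, 3.49-fold for *Srebf1*, 2.57-fold for *Ackr3*, 1.52-fold for *Ppp1r2* and 1.44-fold for *Scd1*. Against animals 54 and 55, it was 8.22-fold, 3.05-fold, 7.74-fold, 3.69-fold, 1.5-fold and 2.95-fold in the same order. All 6 of these genes, therefore, were higher in the HFD mean on either footing, and *Srebf1*, *Scd1* and *Ackr3* gave a smaller ratio against animal 52 than against animals 54 and 55.

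The 48 genes called with DESeq2 were also divided by the place of animal 52. Over all genes tested, animal 52 was nearer to the HFD animals in 59.8%, and a call favours genes in which the 3 control animals agree. Of the 23 higher genes, animal 52 was nearer to animals 54 and 55 in 19 and nearer to the HFD animals in 4. Of the 25 lower genes, the counts were 14 and 11, and in 10 of these 11 animal 52 lay at or below 0.25 of the way from the HFD mean to that of animals 54 and 55. For PR-C-C against PR-C-H, where all 3 control animals were on the high side of the score and no animal is shared, 11 of the 23 and 14 of the 25 were called in the same direction (2.63% and 2.16% of all genes tested there, 4.79% in all). These took in all 15 genes in which animal 52 was nearer to the HFD animals. In PR-C vs PR-C-C, which compares F1 with F2 animals on the same control chow, 10 of the 23 and 14 of the 25 were called in the opposite direction (2.68% and 2.07% of all genes, 4.76% in all). In PC-C vs PC-H, with no library on the high side, 4 of the 23 and 1 of the 25 were called in the same direction (0.635% and 0.556%).

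**Figure D3:**
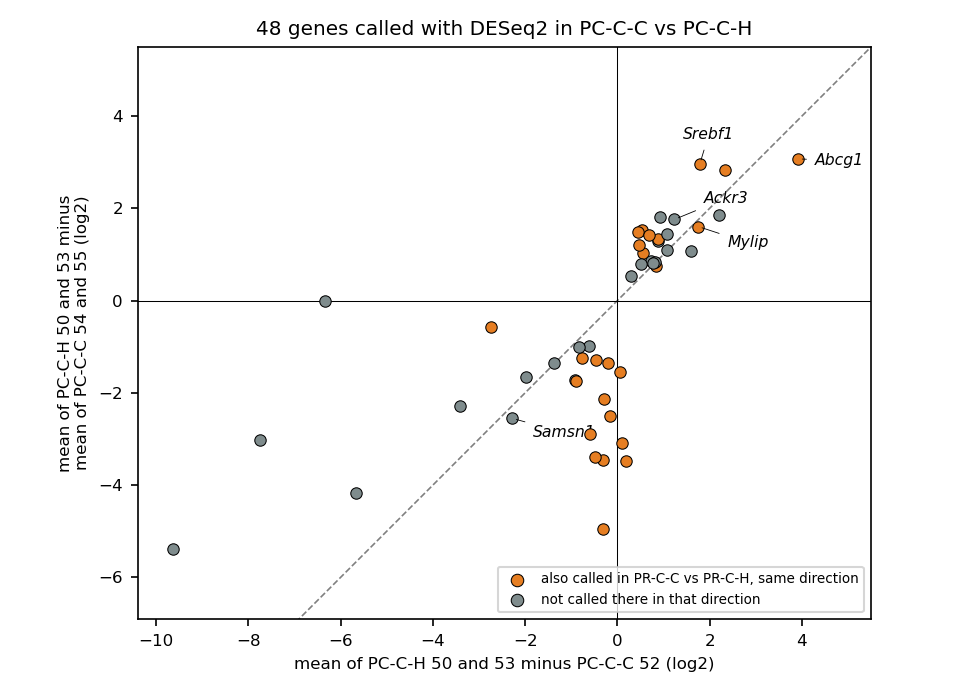
Log2 difference of the PC-C-H mean (animals 50 and 53) from PC-C-C animal 52 (horizontal) and from the mean of PC-C-C animals 54 and 55 (vertical) for the 48 genes called with DESeq2, 1 dot a gene, with equal differences on the dashed line. *Mylip* and *Samsn1* lie near the line, and *Abcg1* differs more from animal 52 (3.92) than from animals 54 and 55 (3.07). A column of lower genes called also for PR-C-C against PR-C-H differs from animals 54 and 55 while the difference from animal 52 is near 0.

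The number of called genes turned on animal 52. Without it, limma called 239 genes (164 higher and 75 lower) and DESeq2 490 (328 higher and 162 lower), among them 44 of the 48 genes and 260 called in the same direction for PR-C-C against PR-C-H. In that fit the diet and the division cannot be told apart. Without any one of the other 4 animals, limma called 0 or 1 genes and DESeq2 11 to 31. With a term for the division in the model, the diet difference rested on animal 52 as the only control. No other group among the libraries tested had animals on both sides. In that fit *Mylip* had a limma log2 fold change of 1.75, *Abcg1* 3.92, *Srebf1* 1.79 and *Scd1* 0.49. These are the differences of the HFD animals from animal 52, with no added evidence.

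**Figure D4:**
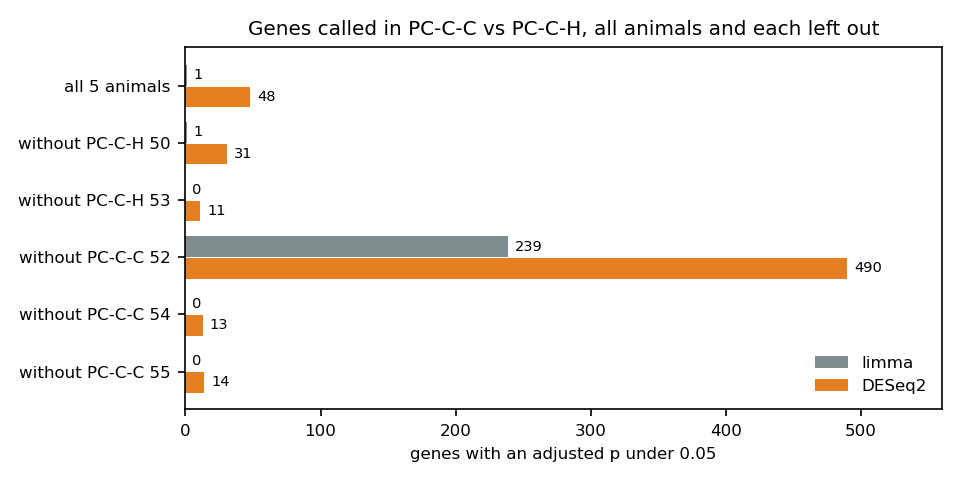
Number of genes with an adjusted p under 0.05 for PC-C-C against PC-C-H with limma (grey) and DESeq2 (orange), with all 5 animals and with each left out in turn. Leaving out PC-C-C animal 52 gives 239 and 490 genes, and leaving out any other animal gives at most 1 and 31.

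Genes of protein folding were examined next, since the named genes come from an F1 list rich in them. Of 6 cytosolic chaperones tested, 0 passed either test, 5 had a positive and 1 a negative log2 fold change, and the median was 0.19. *Hspa8*, the constitutive HSP70, had a normalized count of 28779.6 (50) and 30973 (53) on HFD and of 25604 (52), 17008 (54) and 19858 (55) on control diet. *Dnajb1*, its co-chaperone, had 3559 and 2994 against 3028, 2123 and 1828 in the same order. In both genes animal 52 lay near the HFD animals. Without animal 52, *Dnajb1* had a log2 fold change of 0.73 and was called with both tools (limma adjusted p = 0.0237, DESeq2 adjusted p = 0.00117). *Cct3*, a chaperonin subunit, and *Cacybp* had log2 fold changes of 0.04 and 0.10.

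Of 5 genes of folding and stress in the endoplasmic reticulum, 0 passed either test, and the median log2 fold change was 0.05. *Xbp1*, the transcription factor of the unfolded protein response, ranged from 4763 to 5504 on HFD and from 4867 to 5053 on control diet. *Manf*, a secreted stress protein, was 2298 (50) and 2580.2 (53) against 2894 (52), 1857 (54) and 1890.0 (55), so that animal 52 was the highest of the 5. *Dnajb11* and *Tusc3* had log2 fold changes of -0.02 and -0.14. Of 8 genes of mitochondrial folding, import and membranes, 0 passed either test and the median was 0.0022. Among them *Vdac2*, the outer membrane channel, had a log2 fold change of 0.07, *Ndufv2* of complex I -0.12, *Prelid1* -0.08 and the chaperonin *Hspe1* -0.06.

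Of 5 interferon-induced genes, 0 passed either test, and the median log2 fold change was 0.05. *Ifi27l2* had a normalized count of 4453 (50) and 6044 (53) on HFD, against 10676 (52), 4179 (54) and 2423 (55). *Ifi27* had 2845 and 4485 against 6830.2, 3079 and 1955 in the same order. Animal 52 was the highest of the 5 in both, and the log2 fold changes were 0.12 (SE 0.47) and 0.05 (SE 0.46). *Phf11* and *Zc3hav1*, an antiviral RNA-binding protein, differed by 0.06 and 0.00.

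All 6 genes of microtubules and dynein had a positive log2 fold change, with a median of 0.33, but 0 passed either test. *Dynll1*, a dynein light chain, had a log2 fold change of 0.13, *Stmn3*, which destabilizes microtubules, 0.39 and *Dync1li1* 0.30. *Tuba8*, an alpha-tubulin, had a normalized count of 196 (50) and 187 (53) against 172 (52), 129.9 (54) and 68.3 (55). The groups did not overlap in *Tuba8*, and animal 52 was the nearest control to the HFD animals. Of 8 actin genes, 4 had a positive and 4 a negative log2 fold change, 0 passed either test, and the median was -0.0015. *Cnn3*, an actin-binding calponin, had a log2 fold change of -0.17, *Arpc5l* and *Arpc4* of the Arp2/3 complex -0.08 and 0.08, and *Cdc42se1* -0.09.

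Of 8 genes of endothelial signalling and receptors tested, 7 had a positive log2 fold change (median 0.51), and *Ackr3* and *Samsn1* were called with DESeq2 as given above. *Rras2*, a small GTPase, had a normalized count of 785 (50) and 942 (53) against 772 (52), 550.3 (54) and 611 (55). *Prkch*, a protein kinase C, had 1213 and 1028 against 1046, 869 and 772 in the same order. Their log2 fold changes of 0.43 (SE 0.20) and 0.33 (SE 0.19) passed neither test. Of 14 transcription factor and chromatin genes, 8 had a positive and 6 a negative log2 fold change, 0 passed either test, and the median was 0.09. The 4 with the highest counts, *Hbp1*, *Nfat5*, *Tshz1* and *Rfx5*, had log2 fold changes of -0.18, -0.25, -0.0042 and -0.20.

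Among the markers of other cell types, *Siglec1*, a macrophage lectin and the only 1 of 5 macrophage markers with a symbol, had a normalized count of 0.813 (50) and 0 (53) on HFD and of 16.11 (52), 7.35 (54) and 13.4 (55) on control diet. The groups did not overlap, but the counts were near the limit of detection and the log2 fold change of -3.24 (SE 1.20) passed neither test (limma adjusted p = 0.498). Of 6 B cell markers, 3 had a symbol. *Fcmr* was 69.1 (50) and 32.7 (53) against 42.6 (52), 28.2 (54) and 41.5 (55), *Pou2af1* was listed at 0 in animals 53, 54 and 55, and *Bach2* was too low to be tested with limma. Their summed normalized count was 97.6 and 40.2 on HFD and 34.3 to 51.2 on control diet. The part of such cells in the results was not tested.

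Whether the diet response of these F2 animals differed from that of their F1 counterparts was asked with PC-C and PC-H, 3 animals each and none of them shared. In both generations the 4 lipid genes had a positive log2 fold change. The F1 log2 fold change was 1.55 for *Mylip*, 3.48 for *Abcg1*, 3.22 for *Srebf1* and 2.11 for *Scd1*. The difference, F2 minus F1, was 0.11 (SE 0.33), -0.12 (SE 0.84), -0.65 (SE 0.82) and -0.93 (SE 0.62) in the same order, with limma adjusted p-values of 0.924, 0.968, 0.796 and 0.6. These standard errors leave room for differences of over 1 log2 unit in *Abcg1*, *Srebf1* and *Scd1*.

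Over all genes called in F1, which include *Mylip*, *Abcg1* and *Srebf1*, the response did not carry over to the same extent. On HFD in F1, DESeq2 called 97 genes higher and 85 lower (1.19% of the genes tested), and of the 97 genes 93 were tested with limma in F2. In F2, 66 of the 93 had the same sign, 26 were higher without overlap (12.5% of all genes) and 8 lower without overlap (12.7%). The 4 called higher were *Mylip*, *Abcg1* and *Srebf1*, given above, and *Ackr3*, and 1, *Samsn1*, was called lower. The median log2 fold change of the 93 was 0.73 in F1, where the values had chosen the genes, and 0.12 in F2. It was 0.016 when the HFD mean was set against animal 52 alone and 0.21 against animals 54 and 55. Of the 85, 79 were tested, 46 had the same sign in F2 and 1 was called, and the medians were -0.87 and -0.027. Because the F1 values chose these genes, the smaller F2 medians are a description.

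**Figure D5:**
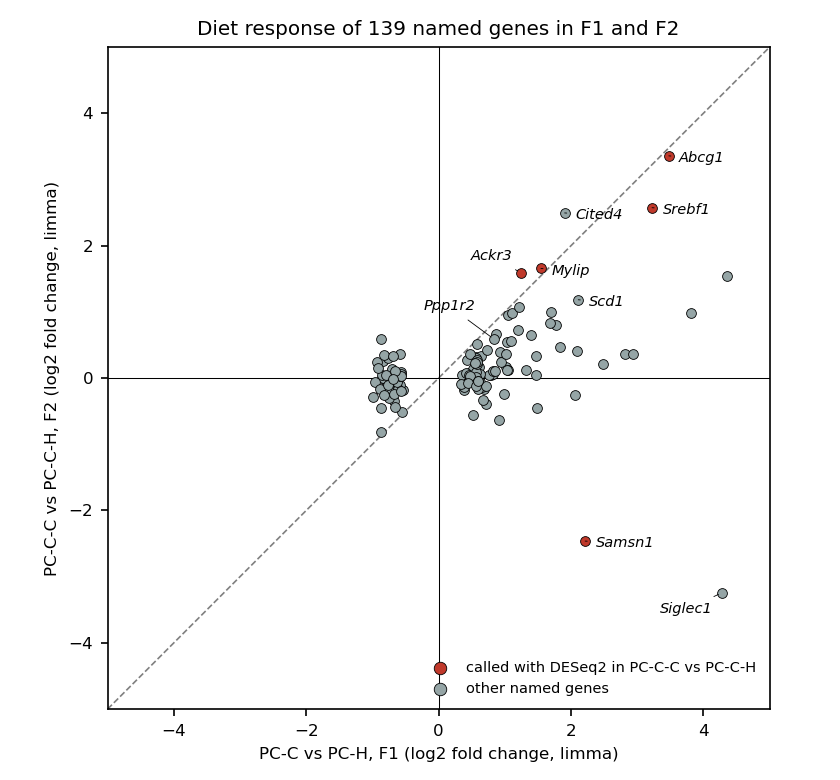
Log2 fold change (limma) of the 139 named genes tested, in PC-C vs PC-H (horizontal, F1) and PC-C-C vs PC-C-H (vertical, F2), 1 dot a gene, with equal responses on the dashed line and the genes called with DESeq2 in F2 in red. *Abcg1* and *Mylip* lie near the line, most other genes lie near 0 in F2, and *Samsn1* and *Siglec1* have opposite signs; the F1 values chose the named genes.

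Tested directly, limma called 0 genes for the difference between the generations, with 1305 at an unadjusted p under 0.05, and edgeR called 0. DESeq2 called 33 (0.211%, with 12 or 0.0767% higher and 21 or 0.134% lower in F2), 13 of them among the 48 and 9 with a symbol. The clearest was *Samsn1*, which was higher on HFD in F1 (56.5 to 87.7 against 7.52 to 32.8) and lower on HFD in F2. The difference was -4.68 on the log2 scale (SE 0.80, limma adjusted p = 0.0916, DESeq2 adjusted p = 8.64e-04). *Siglec1* showed the same reversal at low counts, 8.07 to 156 in PC-H against 0 to 4.7 in PC-C (DESeq2 adjusted p = 0.0191, limma adjusted p = 0.307). Without animal 52, DESeq2 called 225 genes for this difference and limma 78, and without PC-H animal 21 or 34 DESeq2 called 626 or 8.

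The same question was put to the F2 animals of restricted granddams, PR-C-C and PR-C-H, which also share no animal. For *Mylip*, *Abcg1*, *Srebf1* and *Scd1* the difference, full-ration arm minus restricted arm, was -0.22 (SE 0.33), -0.27 (SE 0.84), -1.03 (SE 0.82) and -0.69 (SE 0.62), each with a limma adjusted p of 1.0. Over all genes limma called 0, with 349 at an unadjusted p under 0.05, edgeR called 0 and DESeq2 called 23 (0.127%, with 13 or 0.0718% higher and 10 or 0.0552% lower in the full-ration arm), 7 of them among the 48. Of these, 2 had a symbol: *Gprin3*, with counts too low for a fold change, and *Ackr3*. *Ackr3* was 4292 to 6886 in PR-C-C and 1225 to 4007 in PR-C-H, the opposite order to that in PC-C-C and PC-C-H. The difference was 2.80 (SE 0.53, limma adjusted p = 0.152, DESeq2 adjusted p = 7.30e-04).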

How the data were processed

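RNA sequencing was performed on 1 library per animal. According to the study's methods, the authors used FastQC, Trimmomatic, STAR and DESeq2; versions, genome build, annotation and read counter are not given in the sources used here. The deposited signal values are reads per gene divided by 1 size factor per library: 100% were whole multiples of their column's step (largest deviation 1.28e-09), so whole reads were recovered. For animals 21 and 36 the step lay so close to 1 that an automatic test of the unit did not accept it, although their values were whole multiples too.

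The main test was limma 3.58.1 with an intensity trend in R 4.3.3 on log2 values with a pseudocount of 1. It took in the 13224 genes whose mean was 10 or more and 23 libraries with a mean for each of 8 groups (15 residual and 5.17 prior degrees of freedom), with Benjamini-Hochberg adjustment over all genes and a threshold of 0.05. Fold changes on this scale understate the change of low genes. DESeq2 1.42.0 and edgeR 4.0.16 were run on the recovered reads of the same libraries and groups. Replicates differed far more than counting error (chi-square per degree of freedom of at least 28.9 between any 2 of the animals, where counting error alone gives 1), and intervals for counting error would cover only that. In data simulated for PC-C-C vs PC-C-H, 200 genes were changed among 13212 tested with limma and 13571 with DESeq2. With limma, 88% of the 4-fold and 41% of the 2-fold changes were recovered, with 7 false calls. With DESeq2, 91% and 58% were recovered, with 26 false calls. In the same data no change was put into PR-C-C vs PR-C-H, which has 3 animals a group, and there limma called 0 genes and DESeq2 called 7. These rates describe the simulated data. Whether they hold with the control animals split by the division was not tested. In the measured data, limma did not call *Abcg1* at a log2 fold change of 3.36 (adjusted p = 0.0836).

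The members and lists were chosen with earlier results of these data known. Genes named were those of the study's text, those called, up to 4 of each list by mean count, and the 2 highest and 2 lowest called identifiers. Genes named only for the difference between generations were chosen after their values were seen. *Abca1* and *Meis1* are not reported here. Figures were drawn with matplotlib 3.10.9.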

Additional observations from a re-analysis of the deposited data

Results flagged for a closer look

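Some genes were set aside because their diet response differed between groups of animals by a test of the difference itself, and limma called 0 of them. DESeq2 called 33 genes for the difference between the F2 and F1 animals of the full-ration arm, 9 of them with a symbol. Of these, *Samsn1* had an adjusted p of 8.64e-04, *Fntb*, a farnesyltransferase subunit, 0.00128, *Gprin3* 0.00537, *Siglec1* 0.0191, the splicing factor *Srsf5* 0.0235, *Qrich1* 0.0281, *Prim2*, a primase subunit, 0.0333, and *Hspa14* and *Txnl1* 0.0454 each. The names come from genes called in F1, so these genes were not chosen independently of the F1 values.

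*Fntb* was 464 (50) and 524 (53) on HFD and 593 (52), 848 (54) and 764 (55) on control diet in F2, and 783 to 856 in PC-H against 558 to 603 in PC-C. *Qrich1* and *Srsf5* had the reverse order, with log2 fold changes of 0.59 and 0.34 in F2 and of -0.87 and -0.69 in F1. *Prim2*, *Hspa14* and *Txnl1* had log2 fold changes of -0.63, -0.14 and -0.16 in F2 and of 0.91, 0.65 and 0.59 in F1. *Gprin3* was listed at 0 in both PC-C-H animals and at 5.69 (52), 2.45 (54) and 1.12 (55), counts too low for a fold change.

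DESeq2 called 23 genes for the difference between the F2 animals of full-ration and restricted granddams, among them *Ackr3* (adjusted p = 7.30e-04) and *Gprin3* (0.0104).

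PC-C-H animal 51, left out of the main comparisons, held levels above those of every PC-C-C animal in several genes, which are given here for that reason. *Ppp1r2* was looked at as well and was not above. In most of the 23 genes that DESeq2 called higher, animal 51 lay below every control animal. It had 122 for ENSCPOG00000003851, where the lowest control had 157, and 7.28 for ENSCPOG00000040210, where the lowest had 11. Its normalized count was 1711 for *Mylip*, 1181 for *Abcg1*, 845 for *Srebf1* and 4333 for *Scd1*, where the highest control animals had 504, 360.3, 136 and 512. It was 7466 for *Ackr3*, where the highest control had 2355. In *Samsn1*, where the other HFD animals had the lowest values, animal 51 had 459.8, above the highest control (80.9). Its library failed the study's quality check, and 35.7% of genes differed at least 2-fold between it and animal 50.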

How the results depend on the processing

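No paired analysis was possible because animal numbers are not shared between groups. Between the diets, limma called 1 gene with all 5 animals, DESeq2 48, limma with a pseudocount of 0.1 3, with only the groups compared 0, with animal 51 2, with array weights 647 (45 of the 48 among them; weight 0.427 for animal 52 and 2.56 for animal 54), and with the division term 0; leaving out an animal gave 0 to 239. With DESeq2, the 48 became 130 with animal 51, 110 with sex as a covariate, 23 with the division term and 174 with only the groups compared, and 31 without animal 50, 11 without 53, 490 without 52, 13 without 54 and 14 without 55. For the difference between generations, the 0 of limma became 33 with DESeq2 and 1 each with a pseudocount of 0.1, array weights and the division term, and 0 to 78 without an animal; the 33 of DESeq2 became 7 with animal 51, 73 with the division term, 11 with only the groups compared and 8 to 626 without an animal (225 without 52, 19 without 54). For the difference between arms, the 0 of limma became 23 with DESeq2, 1 with a pseudocount of 0.1, 1 with animal 51, 20 with array weights and 0 to 3 without an animal; the 23 of DESeq2 became 37 with animal 51, 46 with only the groups compared and 6 to 27 without an animal (14 without PR-C-H animal 43, 15 without 59). The DESeq2 fits with animal 51, sex, the division or fewer groups were added after the values were seen. With animal 51, 6 of the genes named turned sign: *Stmn3* (-0.14), *Cnn3* (0.26), *Hbp1* (0.066), *Ndufv2* (0.41), *Hspe1* (0.35) and *Zc3hav1* (-0.13), the last 3 from values smaller than their SE. Where 1 PC-C-H animal was left, or the division term left animal 52 as the only control, that animal was assumed to vary like the other groups. The causes were not tested.

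Animals differed by more than counting error, and the parts of depth and of the number of animals in the calls were not compared. The control animals were split by the division of the libraries, and no HFD animal tested was on its high side, so the diet and the division are separated only through animal 52.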
